A study of Mus musculus with 6 samples.

Results

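The integrated stress response genes are 10 genes chosen by their role in the pathway: the eIF2 alpha kinases Eif2ak1 and Eif2ak3, the transcription factors Atf4, Atf5 and Ddit3, the ATF4 targets Trib3, Asns, Chac1 and Sesn2, and Ppp1r15a, a subunit of the phosphatase that ends the response. They were taken by symbol from 48709 counted genes, and all 10 were found. Of these, 9 had enough reads to be tested, among 12722 genes tested in all, and Chac1 did not. RNA was sequenced from G1E-ER4 cells, immature mouse erythroblasts that came from embryonic stem cells. A GATA-1 and estrogen receptor hybrid protein in these cells is turned on by tamoxifen, which starts their maturation. In the CHD4-APR group, 3 libraries came from cells given a peptide of the aggregation-prone region of the chromatin remodeler CHD4. In the CTRL group, 3 libraries came from cells given a peptide of alanines. Both peptides were joined to the Tat signal and added at 10 μM, 2 h before tamoxifen. Tamoxifen then followed for 28 h in both groups, 30 h in all, and no removal of the peptide is described. The tamoxifen dose stands as 100 μM in the series' design text and as 100 nM in the growth protocol. No untreated library was analysed here, and nothing says that the replicates came from separate cultures, so the p-values measure only the spread between these libraries, which may be technical.

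In the integrated stress response, kinases that sense different stresses phosphorylate the translation factor eIF2, which lowers protein synthesis in general while the mRNAs of Atf4, Atf5, Ddit3 and Ppp1r15a, among others, stay translated through short reading frames in their leaders. ATF4 then switches on genes of amino acid supply and of recovery, and Ppp1r15a brings a phosphatase back to eIF2. In erythroid cells the kinase encoded by Eif2ak1, the heme-regulated inhibitor HRI, matches globin synthesis to the supply of heme. RNA levels do not show whether eIF2 was phosphorylated or how much protein was made, and neither was measured in these libraries.

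Eif2ak3 and Ddit3 moved furthest in each direction, and the sequence just before their start sites is shown so that their promoters can be compared. The sequences are those of RefSeq on GRCm38.p6, written 5′ to 3′ on the strand of the gene, and they end before the first base of the annotated gene. Capitals mark the letters of 4 motifs on either strand: the ATF4 and C/EBP composite element CARE (TGATGNAA), the cyclic AMP element CRE (TGACGTCA), the AP-1 site (TGANTCA) and the CCAAT box (CCAAT). The stretch before Eif2ak3 is chr6:70844265-70844514 on the plus strand, and that before Ddit3 is chr10:127290543-127290773 on the plus strand.
Eif2ak3: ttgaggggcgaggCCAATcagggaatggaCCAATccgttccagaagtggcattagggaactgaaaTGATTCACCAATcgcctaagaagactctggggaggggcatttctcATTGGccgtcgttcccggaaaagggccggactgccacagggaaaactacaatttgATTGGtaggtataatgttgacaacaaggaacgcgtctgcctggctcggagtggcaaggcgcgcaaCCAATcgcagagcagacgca
Ddit3: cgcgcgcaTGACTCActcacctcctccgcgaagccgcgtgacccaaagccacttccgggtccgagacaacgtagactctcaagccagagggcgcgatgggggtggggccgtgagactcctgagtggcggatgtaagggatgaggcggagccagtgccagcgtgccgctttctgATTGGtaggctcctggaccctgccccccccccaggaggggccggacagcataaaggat

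The Eif2ak3 window held 6 CCAAT boxes and 1 AP-1 site, and the Ddit3 window held 1 of each. In all, 32851 RefSeq windows from 250 bases before to 50 bases after a start site were searched on both strands. Of these, 37.4% held at least 1 CCAAT box and 7.8% at least 1 AP-1 site. The number of boxes per window was not counted over all windows, so whether 6 is unusual is not known. The full CARE letters were in the windows of Trib3, Asns and Chac1 and in 4.0% of all windows. Because this is the element through which ATF4 acts on its targets, the 3 matches are shown with their flanks, 30 bases each, with the match in capitals. The Trib3 site is chr2:152344028-152344057 on the minus strand, and its match starts 14 bases after the RefSeq start site. The Asns site is chr6:7693214-7693243 on the minus strand, 23 bases before the RefSeq start site, and the Chac1 site is chr2:119351038-119351067 on the plus strand, 193 bases before it. The gene positions given further on are those of GENCODE, whose start sites differ, so that the Trib3 match lies 14 bases upstream of the GENCODE start and the Asns match 22 bases inside the GENCODE gene.
Trib3: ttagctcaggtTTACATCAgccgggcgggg
Asns: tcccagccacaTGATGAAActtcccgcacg
Chac1: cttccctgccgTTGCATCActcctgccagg

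The CRE letters were in the Ppp1r15a window, 12 bases before the start site, and in 1.8% of all windows. Atf5 held none of the motifs, nor the GATA site AGATAA, which was in the windows of Ddit3 and Ppp1r15a and in 11.2% of all windows. A match describes letters only, and no binding was measured. The annotated leader of the longest coding transcript held an ATG upstream of the start codon in 7 of the 10 members (70.0%), against 5290 of 9976 tested genes with a leader (53.0%). The median leader was longer in the members, 198.5 against 181.0 bases, and the shares were not compared at equal length. The 10 members include Chac1, which was not tested. Ppp1r15a had 7 such ATGs, Eif2ak3 and Atf4 had 3 each, Atf5 and Ddit3 had 2 each, and Eif2ak1, Trib3 and Chac1 had 0.

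CHD4-APR and CTRL libraries differed in most of these genes, by small amounts and mostly downward. At a false discovery rate (FDR) under 0.05, by the edgeR quasi-likelihood test with Benjamini-Hochberg adjustment over all genes tested, 6 of the 9 tested members fell (Eif2ak1, Atf4, Atf5, Ddit3, Asns and Ppp1r15a), 1 rose (Eif2ak3), and Trib3 and Sesn2 did not pass. Among all genes, 38.3% passed, 20.4% as higher and 17.8% as lower in CHD4-APR, against 77.78% of the tested members. The members were chosen with earlier results of these data known, so the difference between these shares is a description only. The groups did not overlap in 8 of the 9 members, and in 49.9% of all genes. The median log2 fold change of the 9 members was -0.15, beside -0.01 for all genes. Only Eif2ak3 passed a change of 1.5-fold, by a small margin, and with the GC correction or without CTRL replicate 2 or CHD4-APR replicate 2 it did not. Over all genes, those of high GC content were lower in CHD4-APR libraries than those of low GC content. With each library corrected for the length and GC content of its genes, the members' median was -0.093, 4 were lower and 1 was higher, beside 28.1% of all genes passing, and the calls of Atf4 and Ppp1r15a were lost.

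**Figure D1:**
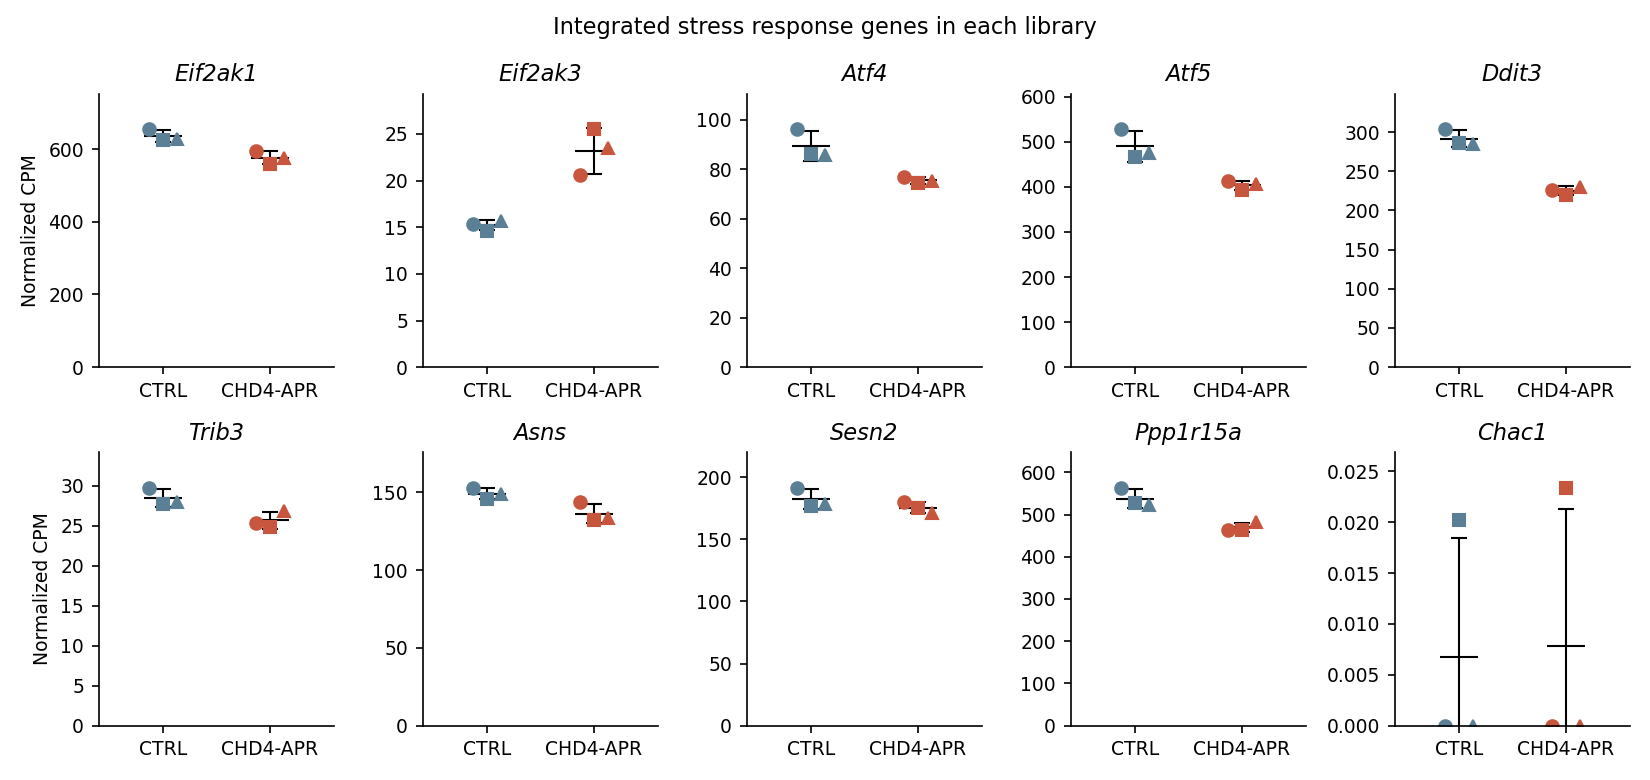
Normalized CPM (vertical axes, each from 0) of the 10 members in the CTRL (blue) and CHD4-APR (red) libraries, with circles, squares and triangles for replicates 1, 2 and 3, a line at the mean and whiskers of 1 SD. Among the 9 tested genes the groups overlap only in Sesn2, the CHD4-APR points lie higher only in Eif2ak3, and Chac1 has 1 read in a single library of each group.

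Eif2ak1 encodes the heme-regulated kinase. Its CPM level, a read count scaled to the library's total and to edgeR's TMM factor, was 654.6, 624.4 and 628.2 under the control peptide and 595.3, 558.4 and 575.9 under CHD4-APR. Every CHD4-APR library lay below every CTRL library, by a narrow margin. The mean went from 636 ± 16.4 (SD, n = 3) to 576 ± 18.5 CPM with a log2 fold change of -0.14 (SE 0.043, edgeR FDR 0.0152), and the level fell by 9.31%. The call was lost without CHD4-APR replicate 2 (log2 fold change -0.12, edgeR FDR 0.122) or replicate 3 (-0.13, edgeR FDR 0.063), or with total counts only (-0.10, edgeR FDR 0.0699). With the GC correction it held (-0.20, edgeR FDR 0.00116). The gene lies at chr5:143817788-143904251 on the plus strand (GRCm38), and 8.6% of its exonic bases are shared with the opposite-strand gene Aimp2 and 3.0% with Ankrd61. The library kit does not mark strand and the counting setting is not given in the sources used here, so reads in shared bases cannot be told apart.

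Eif2ak3 encodes PERK, the kinase that senses unfolded protein in the endoplasmic reticulum. Its CPM were 15.3, 14.6 and 15.7 in CTRL libraries and 20.6, 25.5 and 23.5 in CHD4-APR libraries. All 3 CHD4-APR libraries were higher, and they were more spread out than the CTRL libraries. The mean went from 15.2 ± 0.534 to 23.2 ± 2.48 CPM, a 1.52-fold rise with a log2 fold change of 0.61 (SE 0.079, 95% interval 0.44 to 0.78, edgeR FDR 2.47e-05). Between 648 and 723 reads in CTRL libraries and between 920 and 1110 in CHD4-APR libraries stood behind these values. Eif2ak3 kept its direction and its call under all 18 alternatives, with a log2 fold change of 0.58 after the GC correction. It lies at chr6:70844515-70905245 on the plus strand and shares 8.0% of its exonic bases with the opposite-strand gene Gm43292.

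The other eIF2 alpha kinases did not pass the test. Eif2ak2, the kinase PKR that senses double-stranded RNA, had CPM of 25.5, 26.2 and 26.8 in CTRL and 28.97, 28.2 and 28.7 in CHD4-APR libraries. These groups did not overlap, but the log2 fold change of 0.13 did not pass (edgeR FDR 0.0922). Eif2ak4, the kinase GCN2 that senses uncharged tRNA, had 34.0, 32.2 and 37.1 CPM against 38.3, 39.4 and 36.1 CPM, which overlapped (log2 fold change 0.14, edgeR FDR 0.089). With total counts only both passed (log2 fold change 0.17 for Eif2ak2 and 0.18 for Eif2ak4), and with the GC correction the value of Eif2ak2 was -0.04. Eif2ak4 also passed without CTRL replicate 3 (log2 fold change 0.1946) and was at 0.09238 without CTRL replicate 2. Per kilobase of exons, the level of Eif2ak1 in CTRL libraries was 112 CPM, that of Eif2ak2 was 5.12, that of Eif2ak4 was 4.62 and that of Eif2ak3 was 2.53. The kinase that rose was therefore the one with the lowest level of the 4, and the heme-regulated kinase had by far the highest.

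**Figure D2:**
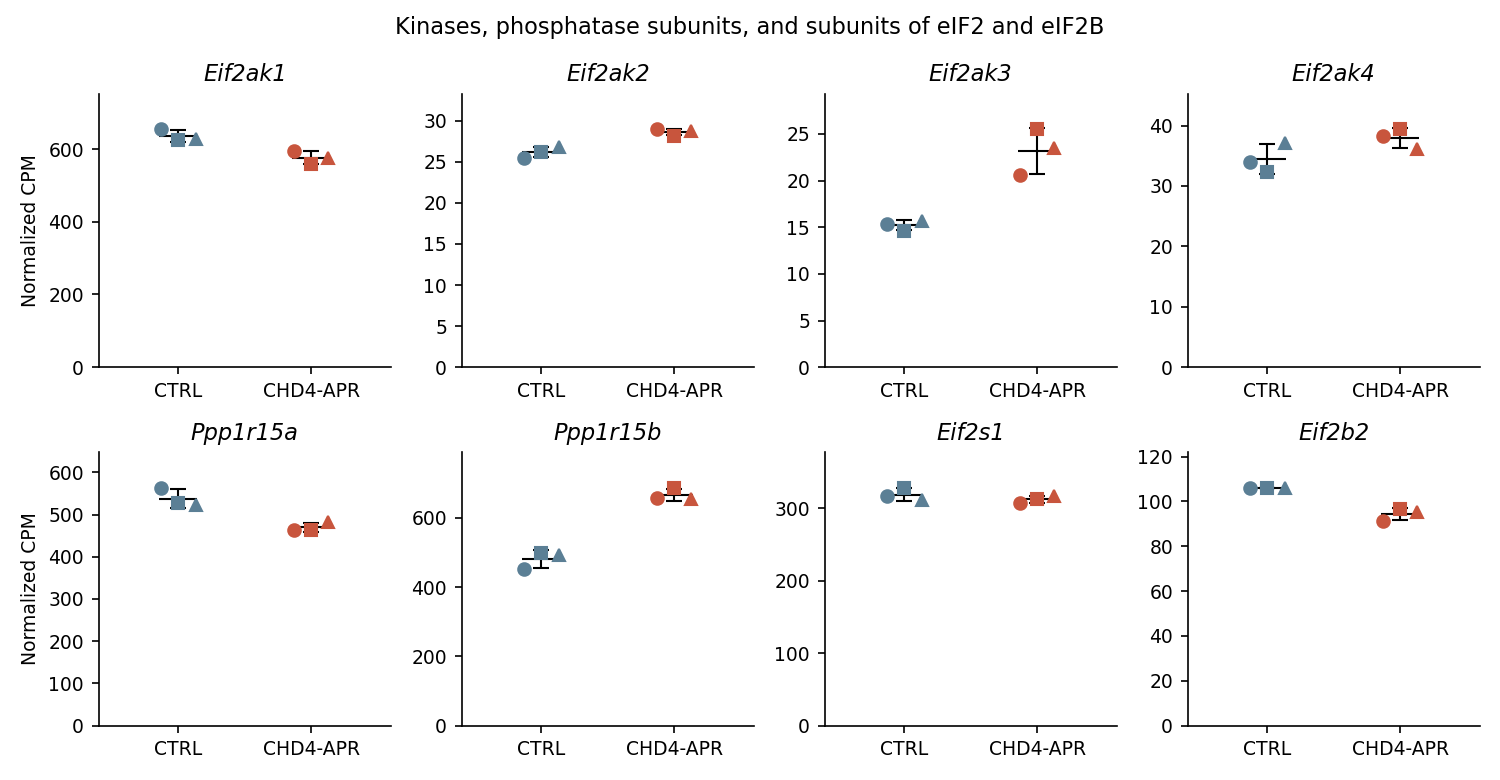
Normalized CPM (vertical axes, each from 0) of the 4 eIF2 alpha kinases, both phosphatase subunits, Eif2s1 and Eif2b2 in the CTRL (blue) and CHD4-APR (red) libraries, with circles, squares and triangles for replicates 1, 2 and 3, a line at the mean and whiskers of 1 SD. Eif2ak2, Eif2ak3 and Ppp1r15b lie higher in all CHD4-APR libraries, Eif2ak1, Ppp1r15a and Eif2b2 lie lower, and Eif2ak4 and Eif2s1 overlap.

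Atf4 encodes the central transcription factor of the response. Its CPM were 96.2, 86.1 and 85.9 in CTRL libraries and 76.9, 74.4 and 75.1 in CHD4-APR libraries. CTRL replicate 1 stood above the other CTRL libraries, and all CHD4-APR libraries were lower than all CTRL libraries. The mean went from 89.4 ± 5.87 to 75.5 ± 1.31 CPM (log2 fold change -0.24, SE 0.051, edgeR FDR 0.00143), and fell by 15.6%. With the length and GC correction the log2 fold change was -0.09 and the call was lost (edgeR FDR 0.11). The GC content of the longest Atf4 transcript, 55.5%, lay in the highest of 4 equal groups of genes by GC content. Atf4 lies at chr15:80255184-80257541 on the plus strand and shares no exonic base with another gene.

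Atf5, a related factor whose mRNA is translated in a similar way, had CPM of 528.0, 465.9 and 475.0 in CTRL and 412.4, 392.1 and 405.7 in CHD4-APR libraries. The groups were well apart, and CTRL replicate 1 was again the highest. The mean went from 490 ± 33.6 to 403 ± 10.3 CPM (log2 fold change -0.28, SE 0.049, edgeR FDR 0.000342), and fell by 17.6%. The direction and the call held under all 18 alternatives, although the log2 fold change shrank to -0.11 with the GC correction (edgeR FDR 0.0327). Atf5 had the highest GC content of the members, 61.7%. It lies at chr7:44812256-44816658 on the minus strand, and 4.1% of its exonic bases overlap Il4i1 and Nup62 on the other strand.

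Ddit3 encodes CHOP, a factor tied to cell death under lasting stress. Its CPM were 303.7, 286.2 and 284.6 in CTRL libraries and 226.1, 219.3 and 230.3 in CHD4-APR libraries. The gap between the groups was wider than the range within either of them. Ddit3 went from 292 ± 10.6 to 225 ± 5.54 CPM, the largest fall among the members, with a log2 fold change of -0.37 (SE 0.043, 95% interval -0.46 to -0.28, edgeR FDR 9.23e-06) and it fell by 22.7%. Its GC content of 45.6% was the lowest of the members, and the log2 fold change was -0.40 with the GC correction. The call held under all 18 alternatives, with values between -0.39 and -0.34 when a library was left out. Ddit3 lies at chr10:127290774-127296288 on the plus strand and shares 4.0% of its exonic bases with Mars and 0.8% with Gm4189, both on the other strand. GENCODE gives the symbol Ddit3 to 2 genes: the values are those of ENSMUSG00000025408, and the other, which shares 6.1% of these exonic bases on the same strand, was not analysed here.

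Asns, an ATF4 target, encodes asparagine synthetase, and its CPM were 152.9, 145.5 and 149.0 in CTRL libraries and 143.4, 132.3 and 133.2 in CHD4-APR libraries. The groups were separate, but CHD4-APR replicate 1 was close to the lowest CTRL library. The mean went from 149 ± 3.68 to 136 ± 6.16 CPM (log2 fold change -0.13, SE 0.046, edgeR FDR 0.0339), and fell by 8.62%. This call was lost without CTRL replicate 1 (log2 fold change -0.11, edgeR FDR 0.0596), CTRL replicate 3 (-0.13, edgeR FDR 0.0892), CHD4-APR replicate 2 (-0.11, edgeR FDR 0.179) or CHD4-APR replicate 3 (-0.11, edgeR FDR 0.153), and with total counts only (-0.08, edgeR FDR 0.171). Asns lies at chr6:7675169-7693254 on the minus strand.

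Trib3 encodes a pseudokinase that restrains ATF4 and AKT, and it did not pass the test. Its CPM were 29.8, 27.7 and 28.0 in CTRL libraries and 25.3, 24.9 and 26.9 in CHD4-APR libraries, with no overlap between the groups. The log2 fold change was -0.15 (SE 0.061, 95% interval -0.28 to -0.02, edgeR FDR 0.069), and it was 0.02 with the GC correction. Sesn2 encodes sestrin 2, which dampens mTORC1 signalling when amino acids are short, and its CPM were 191.4, 176.4 and 178.6 in CTRL against 180.2, 174.9 and 171.3 in CHD4-APR libraries. The Sesn2 groups overlapped, the log2 fold change was -0.05 (95% interval -0.15 to 0.04, edgeR FDR 0.38), and it was 0.08 with the GC correction. Chac1, a glutathione-degrading enzyme, had 1 read in CTRL replicate 2, 1 in CHD4-APR replicate 2 and 0 in the others. Chac1 could not be compared at this depth, which is not the same as its absence. Trib3 lies at chr2:152337422-152344032 on the minus strand, Sesn2 at chr4:132492032-132510501 on the minus strand and Chac1 at chr2:119351229-119354381 on the plus strand.

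Ppp1r15a encodes GADD34, the stress-induced subunit that directs a phosphatase to eIF2, and Ppp1r15b encodes CReP, the constitutive one. Ppp1r15a CPM were 563.6, 526.3 and 522.9 in CTRL libraries and 464.1, 463.4 and 481.4 in CHD4-APR libraries, with no overlap. The mean went from 538 ± 22.6 to 470 ± 10.2 CPM (log2 fold change -0.19, SE 0.044, edgeR FDR 0.00219), and fell by 12.6%, and the call was lost with the GC correction (-0.06, edgeR FDR 0.246). Ppp1r15b had CPM of 451.2, 499.3 and 492.5 in CTRL and 656.3, 687.3 and 655.6 in CHD4-APR libraries. Ppp1r15b was higher in every CHD4-APR library and rose from 481 ± 26.0 to 666 ± 18.1 CPM (log2 fold change 0.47, edgeR FDR 2.19e-06, and 0.41 with the GC correction). Whether the Ppp1r15a and Ppp1r15b changes differ was not tested. Ppp1r15a lies at chr7:45522916-45526268 on the minus strand and shares 0.4% of its exonic bases with Tulp2 on the other strand.

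**Figure D3:**
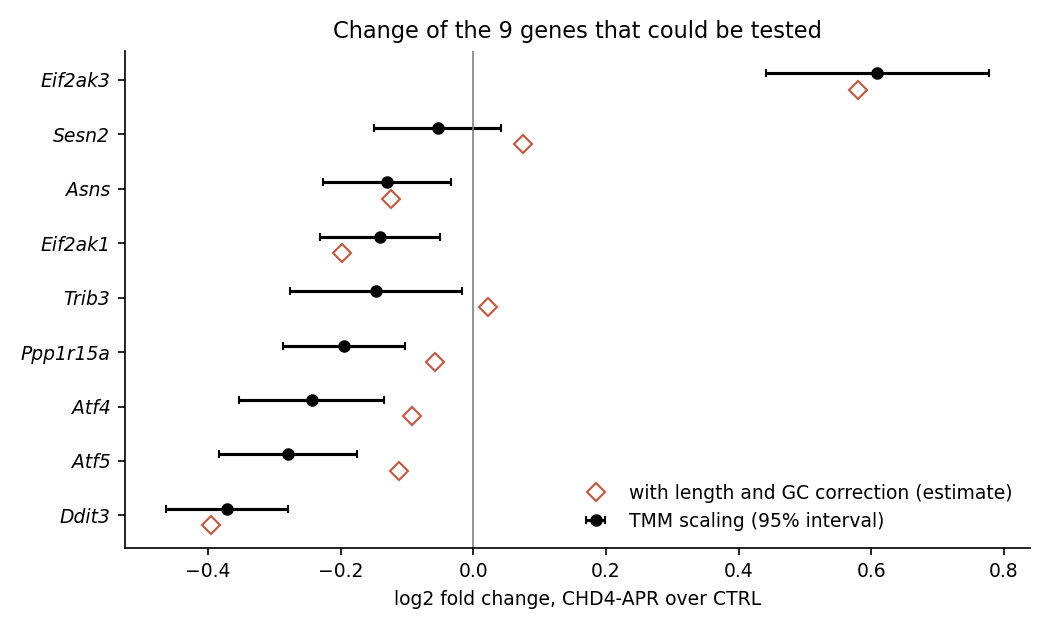
Log2 fold change, CHD4-APR over CTRL (horizontal axis), of the 9 tested members, as black points with the 95% interval from edgeR and as open diamonds for the estimate with the correction for length and GC content. Eif2ak3 (0.61 and 0.58) and Ddit3 (-0.37 and -0.40) move little between the fits, while Atf4 goes from -0.24 to -0.09 and Atf5 from -0.28 to -0.11.

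Per kilobase of exons, the order of levels in CTRL libraries was Atf5 (246 CPM per kilobase), Ppp1r15a (183), Ddit3 (170), Eif2ak1 (112), Asns (54.5), Sesn2 (52.4), Atf4 (37.9), Trib3 (13.4) and Eif2ak3 (2.53), with Chac1 last. Asns and Sesn2 overlapped, and no other neighbours in this order did. In CHD4-APR libraries Asns, at 49.82 CPM per kilobase, and Sesn2, at 50.5, overlapped again, and the other neighbours stayed apart in the same order. CTRL replicate 1 was the highest CTRL library in 8 of the 9 tested members, Eif2ak3 being the exception. The same share over all genes was not counted, so this is not a trait of the members. Over all genes tested, CTRL replicate 1 differed more from CTRL replicates 2 and 3 (chi-square per degree of freedom 15.46 and 9.401) than these did from each other (4.979). The genes whose log2 CPM followed Atf4 most closely over the 6 libraries, out of 5142 genes whose mean log2 CPM reached 5, were Htatip2 (Pearson r = 0.9995), Mrfap1 (0.9985), Pes1 (0.9978), Map1lc3b (0.9976) and Tkt (0.9975). All of them share the same libraries and the split between groups. Atf5 followed Atf4 with r = 0.9953.

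The wider pathway was mixed in direction. Of the 19 tested genes of eIF2 control besides the members (20 listed), 5 rose, 3 fell and 11 did not pass, with a median log2 fold change of 0.02, which turned to -0.037 with the GC correction, to -0.017 without CHD4-APR replicate 3 and to -0.0020 without CTRL replicate 3. Besides Ppp1r15b, Dnajc3, which encodes an inhibitor of PERK and PKR, rose from 54.6 to 68.7 CPM (log2 fold change 0.33, edgeR FDR 0.000175). Nck1, an adaptor that helps dephosphorylate eIF2, rose by 0.30 (edgeR FDR 0.00336) and the eIF2 gamma subunit gene Eif2s3x by 0.25 (edgeR FDR 0.0014). With the GC correction Dnajc3 was at 0.15 and Eif2s3x at 0.13. The falls were in subunits of the exchange factor eIF2B: Eif2b2 (log2 fold change -0.17), Eif2b1 (-0.15) and Eif2b4 (-0.15, with its sign flipped by the GC correction). With that correction Nck1, Eif2b2 and Eif2b1 lost their calls too. The calls of Eif2b1 and Eif2b4 were also lost with total counts only, that of Eif2b1 with no filter on low counts and without any library but CTRL replicate 1 (log2 fold change from -0.1751 to -0.1284 with 1 library left out) and that of Eif2b4 without CTRL replicate 1 or 3 or CHD4-APR replicate 1 or 2 (-0.1809 to -0.1216). Eif2s1, the subunit that is phosphorylated, was at 318 ± 8.92 CPM in CTRL and 312 ± 4.43 in CHD4-APR libraries (log2 fold change -0.03, edgeR FDR 0.628), but with the GC correction Eif2s1 was lower (-0.26, edgeR FDR 0.000106). With the GC correction 3 of these genes were higher and 6 lower, and without scaling factors 8 were higher and 1 lower.

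Of 28 listed bZIP transcription factor partners and stress effectors, 15 were tested, and 5 rose, 4 fell and 6 did not pass (median 0.07). Nupr1, a stress-induced chromatin protein, fell most, from 254 ± 22.1 to 191 ± 6.43 CPM (log2 fold change -0.41, edgeR FDR 3.11e-05). Eif4ebp1, the repressor of cap-dependent translation, went from 70.6 to 56.9 CPM (-0.31, edgeR FDR 0.000866), the cell cycle inhibitor gene Cdkn1a fell by 0.21 on the log2 scale and the apoptosis gene Bbc3 by 0.24. Chac2 (log2 fold change 0.34), Sesn1 (0.24), Ero1l (0.17) and Nfe2l1 (0.15) rose, and with the GC correction the sign of Ero1l flipped, Bbc3 and Chac2 lost their calls and Cdkn1a was at -0.11. Atf3, with 3 reads over all 6 libraries, was not tested. With 1 library left out, calls were lost for Bbc3 (without CTRL replicate 1 or 3 or CHD4-APR replicate 2 or 3, log2 fold change from -0.3204 to -0.1732), Chac2 (without CTRL replicate 1 or 3 or CHD4-APR replicate 1, 0.2712 to 0.4382), Ero1l (without CTRL replicate 1 or 3 or CHD4-APR replicate 2, 0.129 to 0.215) and Nfe2l1 (without CTRL replicate 2 or 3 or CHD4-APR replicate 1, 0.1164 to 0.1828). Bbc3 lost its call with total counts only as well. Cebpb (log2 fold change -0.24, edgeR FDR 0.0531) and Ddit4 (0.05, edgeR FDR 0.753) did not pass. Cebpb passed with DESeq2, upper quartile scaling, no filter on low counts or the replicate block, and without CTRL replicate 2 (-0.3246) or CHD4-APR replicate 3, and it was at -0.1293 without CTRL replicate 3 and at -0.09558 with the GC correction (edgeR FDR 0.4563). With the GC correction 3 genes were higher and 3 lower, under upper quartile scaling 4 and 5, and with total counts only 6 and 3.

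Of 26 listed genes of amino acid synthesis and transport, 17 were tested, and 3 rose, 4 fell and 10 did not pass (median -0.08, which turned to 0.0055 with the GC correction and was -0.015 without CTRL replicate 2). The risers were the glutamine transporter gene Slc38a2, from 60.1 ± 1.90 to 85.02 ± 3.85 CPM (log2 fold change 0.50, edgeR FDR 2.32e-06), the cationic amino acid transporter gene Slc7a1 (0.40, edgeR FDR 7.95e-05) and the serine synthesis gene Psat1 (0.17, edgeR FDR 0.00694). With the GC correction Slc38a2 was at 0.27. Slc1a5 (-0.20), Slc3a2 (-0.17), Shmt2 (-0.16) and Slc6a9 (-0.15) fell. None of these 4 kept its call with that correction, where 4 genes of this list were higher and 0 lower. With total counts only, 4 were higher and 2 lower, and Shmt2 and Slc6a9 lost their calls. With 1 library left out, calls were lost for Psat1 (without CHD4-APR replicate 2), Shmt2 (without CHD4-APR replicate 1) and Slc6a9 (without CTRL replicate 1 or CHD4-APR replicate 1 or 2).

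Of 29 listed genes of the unfolded protein response outside ATF4, 28 were tested, and 9 rose, 3 fell and 16 did not pass (median 0.02, and -0.00081 without CTRL replicate 3). Edem3, which acts in the disposal of misfolded glycoproteins, went from 27.5 to 43.7 CPM (log2 fold change 0.66, edgeR FDR 4.69e-06), and Mbtps2, the site-2 protease that cuts ATF6, from 10.5 to 16.6 CPM (0.66, edgeR FDR 5.28e-05, and 0.30 with the GC correction). Dnajb9, a chaperone partner (0.47), and Ern1, which encodes the stress sensor IRE1 (0.39), also rose. Sec61b (-0.24), Sdf2l1 (-0.19) and Manf (-0.14) fell, and each lost its call with the GC correction. Sdf2l1 and Manf lost theirs with total counts only too, Sdf2l1 also without CHD4-APR replicate 2, and Manf with no filter on low counts and without any library but CTRL replicate 3. Hspa5, the central chaperone BiP of this compartment, was at 192 ± 3.38 and 203 ± 3.89 CPM (log2 fold change 0.08, edgeR FDR 0.128), passed with total counts only (0.13) and was at -0.02 with the GC correction. With the GC correction 6 genes of this list were higher and 2 lower, and with total counts only 12 and 1. The share of genes that passed was 42.11%, 60%, 41.18% and 42.86% in the 4 lists in this order, beside 38.3% of all genes.

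**Figure D4:**
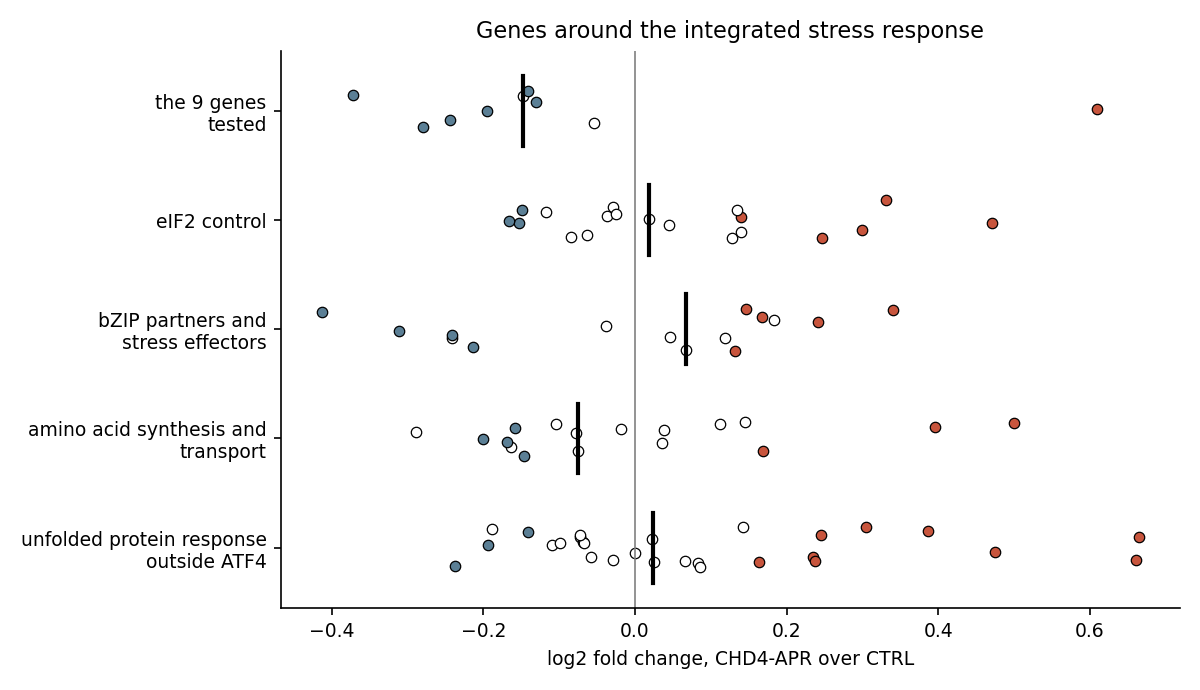
Log2 fold change, CHD4-APR over CTRL (horizontal axis), of each tested member and each tested gene of the 4 wider lists, 1 point a gene, red for higher and blue for lower at an edgeR FDR under 0.05 and open otherwise, with a black bar at the median of each list (vertical offsets only separate points). The members lie mostly under 0 (median -0.15), and the wider lists lie on both sides of 0 (medians from -0.08 to 0.07).

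Over all genes, the median log2 fold change was 0.20, 0.05, -0.07 and -0.15 in 4 equal groups from the lowest to the highest GC content. Atf4, Atf5, Trib3, Sesn2 and Ppp1r15a were the 5 members in the highest group, Eif2ak3 was in the third, and Eif2ak1, Ddit3 and Asns were in the second. The share of called genes that were higher was 53.4% without and 41.9% with the correction, and 66.7% with total counts only. The part of base composition in the members' values was not tested beyond this correction.

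**Figure D5:**
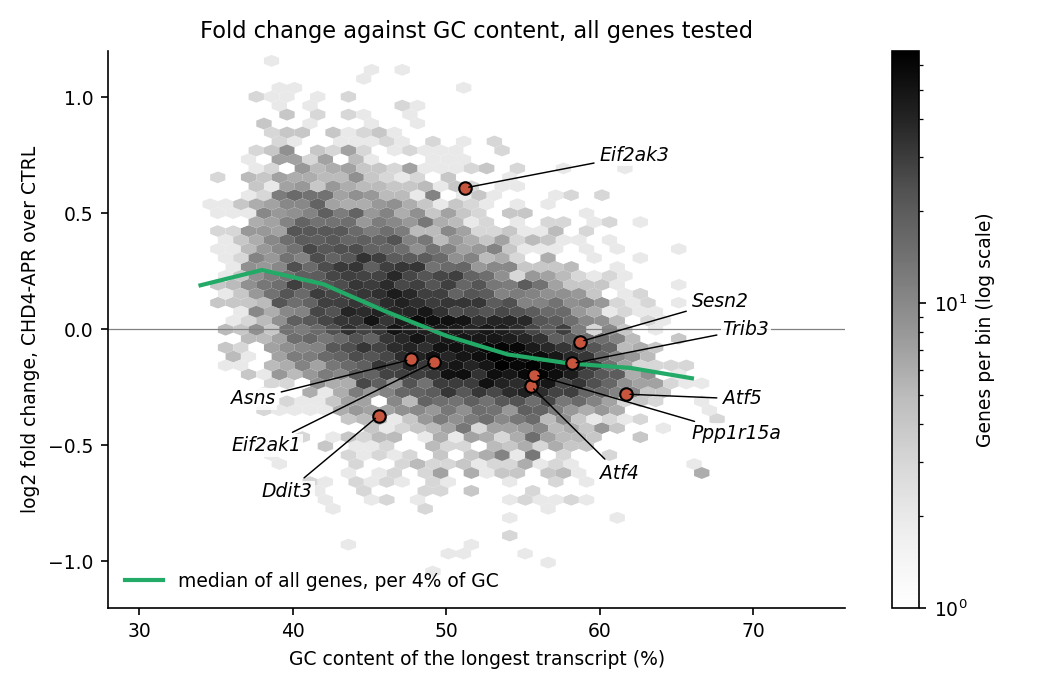
Log2 fold change, CHD4-APR against CTRL, against the GC content of the longest transcript for the 12677 tested genes with a known value, of which 69 lie outside the axes, with the median per bin as a line and the tested members labelled. The line falls from left to right, Eif2ak3 lies above it and Ddit3 below it.

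The libraries held between 41687482 and 49784177 counted reads. The 16 erythroid markers were all tested, 3 were higher and 7 lower, and their summed level was 74740 to 80142 CPM in CTRL and 64170 to 68209 CPM in CHD4-APR libraries, so the labelled erythroid cell type had all of its listed markers. Of 8 megakaryocyte markers 4 were tested and 1 was lower (54.6 to 58.4 against 50.1 to 54.0 CPM summed, with Gp1bb, Vwf and Ppbp at 0). Of 10 myeloid markers 3 were tested and 2 were lower (183 to 211 against 166 to 167 CPM, with Mpo, S100a8 and S100a9 at 0). None of the 6 embryonic stem cell markers was tested, and Pou5f1, Nanog and Sox2 were at 0. The part of these markers in the members' values was not tested, and in bulk RNA fewer cells of a type and less RNA per cell cannot be told apart.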

How the data were processed

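Poly(A) RNA was sequenced in 3 CTRL and 3 CHD4-APR libraries. The authors trimmed reads with Cutadapt, aligned them with STAR 2.7.10a to GRCm38 and deposited raw read counts per Ensembl gene from featureCounts, with no normalization. Another 2 columns of that table match no sample and were not used. Counts were tested in R 4.3.3 with edgeR 4.0.16 (filterByExpr, TMM, quasi-likelihood F-test, no replicate block), with Benjamini-Hochberg adjustment over 12722 genes and a threshold of 0.05. Each SE was computed from the log2 fold change and its F value. Symbols, positions and exonic lengths came from GENCODE M21, and promoters from RefSeq (GRCm38.p6), where all 10 members matched. No transcript of a gene that does not overlap a member aligned to it at 90% identity over 100 bases.

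Members and lists were chosen with earlier results of these data known. The genes named are the members, the 4 largest changes each way per list with an FDR under 0.05 and a mean of at least 1 log2 CPM, Eif2ak2, Eif2ak4, Eif2s1, Ppp1r15b, Atf3, Cebpb, Ddit4, Psat1, Hspa5, and the 5 genes most like Atf4. Some marker genes at 0 are named besides, and 1 marker is not reported here.

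The alternatives were DESeq2 1.42.0, limma-voom (limma 3.58.1), 3 other scalings, 2 other low-count filters, the hemoglobin genes left out, a replicate block, a length and GC correction (smoothed per library with mgcv 1.9.3 and passed to edgeR as offsets), both together, an FDR of 0.01 and leaving out each library. On simulated counts of this comparison (12597 genes, 197 changed by 1 on the log2 scale) edgeR recovered 171 with 7 false calls. All members changed by less than that, so this recovery does not describe changes of their size. Where a GC trend but no change was simulated, edgeR without the correction, as in the main test, called 1961 of 12592 genes, and with it 0 of 12550. No replicate was a copy of another, since all pairs differed beyond sampling noise.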

Additional observations from a re-analysis of the deposited data

How the results depend on the processing

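The number of members higher stayed at 1 and the number lower between 4 and 7 under all alternatives. The members' median log2 fold change was -0.10 with total counts only, -0.093 with the GC correction and -0.092 with the block added to it, and -0.18 to -0.12 with a library left out. For eIF2 control, 8 were higher and 1 lower with total counts only, and 3 and 6 with the GC correction, with or without the block. At an FDR of 0.01, 1 was lower there, 1 partner or effector was higher, 2 amino acid genes and 1 gene of the unfolded protein response were lower. Partners and effectors higher were 3 with the GC correction, with or without the block. Amino acid genes lower were 2 with total counts only, 0 with the GC correction and 1 with the block added, where 5 were higher. Lower genes of the unfolded protein response were 1 with total counts only. Leaving out a library gave 1 to 2 lower in eIF2 control (1 without CTRL replicate 3 or CHD4-APR replicate 1 or 2), 1 to 5 partners and effectors higher (3 without CTRL replicate 1 or CHD4-APR replicate 2, 2 without CHD4-APR replicate 1, 1 without CTRL replicate 3), 2 to 4 amino acid genes lower (2 without CHD4-APR replicate 1) and 1 to 3 lower in the unfolded protein response (1 without CHD4-APR replicate 2). The medians were, for eIF2 control, 0.0020 (upper quartile), 0.064 (total counts), -0.037 (GC correction), -0.038 (with block) and -0.017 to 0.054 (library left out). For partners and effectors they were 0.113 (total counts) and 0.031 to 0.102 (library left out). For amino acid genes they were -0.031 (total counts), -0.044 (no filter), 0.0055 (GC correction), 0.0052 (with block) and -0.0815 to -0.015 (library left out). For the unfolded protein response they were 0.0066 (upper quartile), 0.068 (total counts), 0.0082 (GC correction), 0.0079 (with block) and -0.00081 to 0.045 (library left out). Over all genes, 1493 were higher with the GC correction and 1691 with the block added, and 1474 were lower with total counts only and 1308 at an FDR of 0.01. Without 1 library, 2175 to 2613 were higher and 1528 to 2315 lower. The Eif2b4 log2 fold change was 0.0063 with the GC correction and 0.005582 with the block added, and the Ero1l log2 fold change was -0.05599 and -0.05534. Under the same pair of settings, values that had not passed changed sign for the Trib3 log2 fold change (0.02145 and 0.02079), the Sesn2 log2 fold change (0.07545 and 0.07551), the Eif2ak2 log2 fold change (-0.03682 and -0.03771) and the Hspa5 log2 fold change (-0.01503 and -0.01487). The Eif2s1 log2 fold change was 0.01655 with total counts only, and the Ddit4 log2 fold change went from -0.02348 (without CHD4-APR replicate 1) to 0.1018 (without CHD4-APR replicate 3). The cause was not tested.

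Correlations of deviations between libraries of the same replicate number were 0.07, 0.06 and -0.04. CTRL replicates 1 and 2 were each closest to the CHD4-APR library of their own number, and CTRL replicate 3 was closest to CHD4-APR replicate 2 (0.03). With values this small, whether the replicate numbers pair the libraries could not be told. With the replicate block 2739 genes were higher and 2475 lower, beside 2601 and 2270 without it. The replicate block changed no call of a member (Ddit3 -0.37, Eif2ak3 0.61), and among the other named genes of the lists it changed that of Cebpb, which passed. Of 792 values of named genes under 18 alternatives, 676 kept their direction and side of the threshold, 89 lost the call, 13 gained it and 14 changed sign. Trib3 passed with upper quartile scaling (-0.16, edgeR FDR 0.0439).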
